A study of Arabidopsis thaliana with 6 samples.

Results

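At2g30600 (AT2G30600) and BT5 (AT4G37610) are Arabidopsis thaliana genes whose products carry a BTB domain. Both were chosen by their lower transcript values in the arrays labelled bzip63-2 than in those of Ws, with that result known, so the difference is described here and not tested. On the Affymetrix ATH1 array, 3 probe sets read them, 2 for At2g30600 (267523_at and 267524_at) and 1 for BT5 (253061_at), of 22746 measured, and 13467 genes had a named probe set. At2g30600 lies on chromosome 2 and BT5 on chromosome 4. Transcript levels were measured on 6 arrays, 3 of the wild type Wassilewskija (Ws) and 3 of bzip63-2 (also called H3-2, FLAG_610A08), a single T-DNA insertion line in the Ws background. Plants of both genotypes were 25 d old, received no further treatment, had a daily cycle with 10 h of light and 14 h of dark, and were sampled as the night ended. Each array received RNA from 1 pool of 5 plants, and the labels call the replicates biological. The labels name the 4 youngest leaves of each plant, and the methods add the shoot apical meristem.

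The BTB (or POZ) domain is a protein interaction fold. In many plant proteins it joins substrates to cullin 3 (CUL3), the scaffold of a class of ubiquitin ligases, and in others it forms dimers in transcriptional complexes. BT5 belongs to the BTB/TAZ family, which combines a BTB domain with a TAZ zinc finger, a domain best known from the histone acetyltransferases of the CBP and p300 type. BTB/TAZ proteins bind bromodomain (BET) proteins, and BT2, the best studied member, is known for transcript levels that respond to sugars, nitrogen and the time of day. At2g30600 is treated here only as a BTB/POZ domain gene, from the written list of such genes. The names in the gene table used here did not mark it as one. bZIP63, the gene disrupted in the mutant, encodes a group C basic leucine zipper factor that the energy-sensing kinase SnRK1 phosphorylates.

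The array values are log2 values on which 1 unit is a doubling. All arrays shared one lowest value, 2.47, and between 39.4% and 42.2% of values per array were no more than 0.05 higher. This lowest value is called the floor here. Correlations over all probe sets were 0.993 to 0.994 within Ws, 0.995 to 0.996 within bzip63-2 and 0.990 to 0.993 between the genotypes. The probe set of bZIP63 itself read 5.32, 5.51 and 5.91 in Ws and 8.65, 8.55 and 8.78 in the arrays labelled bzip63-2. The disrupted gene thus had the higher value in the mutant, and the place of this probe set with respect to the T-DNA could not be looked up, so every direction below rests on the labels. Rubisco activase (RCA), an abundant leaf transcript, was at 11.5 to 11.8 on all arrays. It was the only one of 7 leaf markers with a named probe set. CLV3 and UFO, the 2 of 5 shoot meristem markers with a named probe set, stayed between 2.47 and 2.52, and none of 6 root markers had one.

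At2g30600 had the largest decrease of all 22746 probe sets. Its probe set 267523_at read 5.78, 5.66 and 6.34 in Ws, compared with 3.50, 3.37 and 3.59 in the arrays labelled bzip63-2. The genotypes did not overlap: the lowest Ws array stood 2.07 above the highest bzip63-2 array, whereas the Ws arrays spanned 0.68 and the bzip63-2 arrays 0.22. Ws averaged 5.93 ± 0.36 and bzip63-2 averaged 3.49 ± 0.11 (SD, n = 3 arrays each). On the log2 scale the difference was -2.44 (standard error 0.22), so that the value in bzip63-2 was 18.4% of that in Ws. Over the 9 pairs of 1 Ws and 1 bzip63-2 array, the ratio of Ws to bzip63-2 ran from 4.19-fold to 7.85-fold. In these bulk samples, fewer cells that express the gene and less RNA per cell cannot be told apart.

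The other probe set of At2g30600 gave the same direction at values close to the floor. Probe set 267524_at read 3.03, 3.66 and 3.79 in Ws and 2.54, 2.48 and 2.63 in the arrays labelled bzip63-2. Again no bzip63-2 array reached the lowest Ws array, with a gap of 0.40. Ws averaged 3.49 ± 0.41 and bzip63-2 averaged 2.55 ± 0.08 (SD, n = 3 arrays each), which differ by -0.94 on the log2 scale (standard error 0.24). The bzip63-2 arrays lay 0.01 to 0.16 above the floor. From the Ws mean down to the floor this probe set had room for a difference of 1.02 only, and it showed 92.1% of that. Probe set 267523_at had room for 3.46 and showed 70.5% of it. The difference of 267524_at could therefore not reach that of 267523_at. Which part of the transcript each probe set reads is not known here.

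BT5 was lower in bzip63-2 at values well above the floor. Its probe set read 7.26, 7.45 and 7.77 in Ws and 6.05, 5.76 and 5.88 in the arrays labelled bzip63-2. All 3 bzip63-2 arrays lay at least 1.21 below the lowest Ws array. Ws averaged 7.49 ± 0.26 and bzip63-2 averaged 5.90 ± 0.14 (SD, n = 3 arrays each). The log2 difference of -1.59 (standard error 0.17) leaves the value in bzip63-2 at 33.1% of that in Ws. Over the 9 pairs of arrays the ratio of Ws to bzip63-2 ran from 2.32-fold to 4.01-fold. Between the Ws mean and the floor BT5 had room for a difference of 5.02, of which 31.7% was used, and its lowest array still stood 3.30 above the floor. Among all probe sets, 4 had a larger decrease than BT5 and 15 a larger one than 267524_at.

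**Figure D1:**
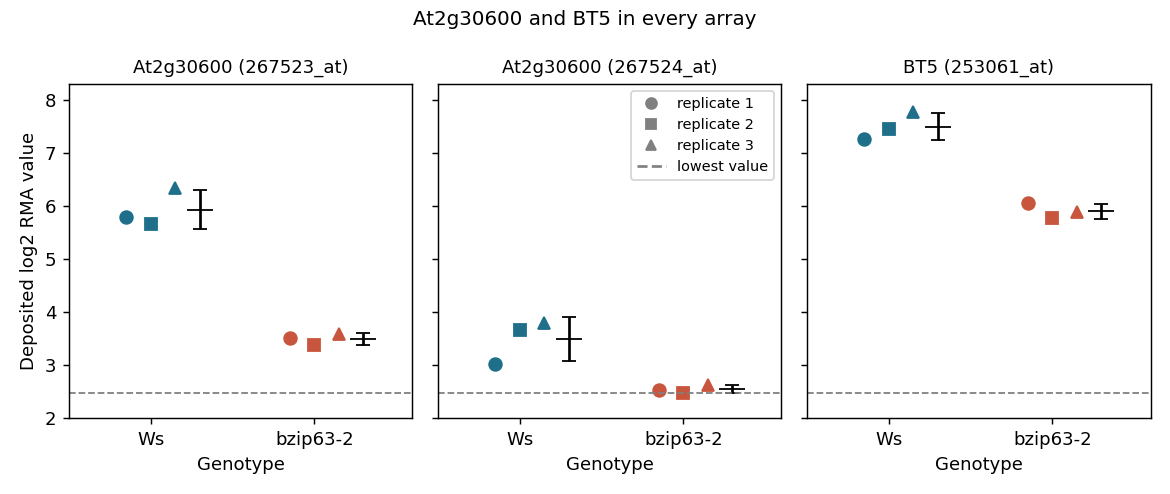
Deposited log2 values (vertical axis) of the 2 probe sets of At2g30600 and of BT5 in each of the 3 Ws and 3 bzip63-2 arrays; marker shapes are replicates, black bars give the mean ± SD and the dashed line is the floor at 2.47. In each panel the 3 bzip63-2 arrays lie below the 3 Ws arrays, and for 267524_at they lie within 0.16 of the floor.

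All 3 probe sets separated Ws from bzip63-2 without overlap, which over the whole array held in the lower direction for 734 probe sets (3.23%) and in the higher direction for 1549 (6.81%). As the genes were chosen for this contrast, nothing is read from that count. The p-values given below measure the spread between pools, and an exact permutation of 3 against 3 arrays could not go below 0.10. With the same contrast fitted by limma over all 22746 probe sets, 0% were called at an adjusted p under 0.05. At an unadjusted p under 0.05 from limma, 1449 (6.37%) passed, 984 of them higher (4.33%) and 465 lower (2.04%). With the fit restricted to means above 3, 57 of 8242 (0.692%) were called at an adjusted p under 0.05.

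**Figure D2:**
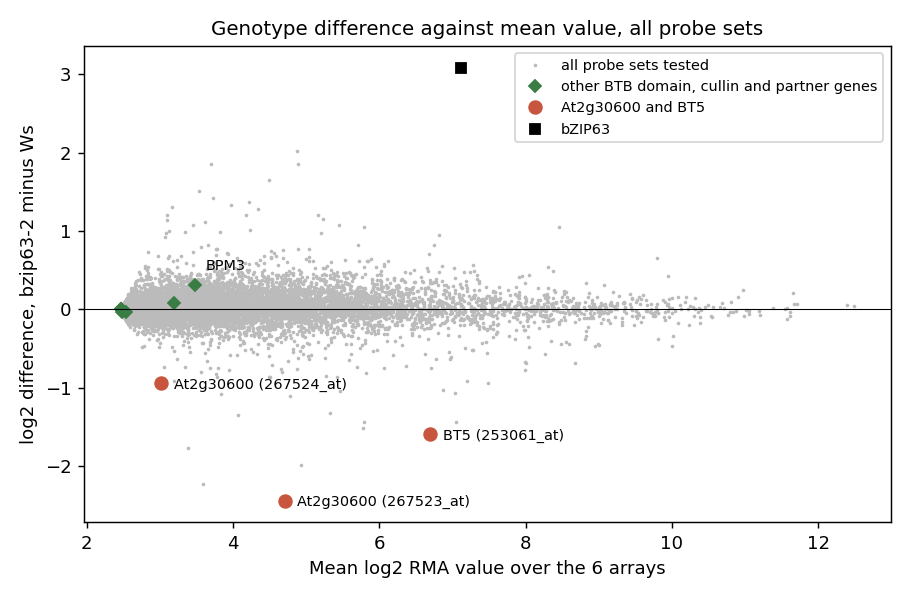
Log2 difference between the genotypes (vertical axis, bzip63-2 minus Ws) against the mean log2 value over the 6 arrays (horizontal axis) for all 22746 probe sets, with At2g30600, BT5, bZIP63 and 8 other BTB domain, cullin and partner genes marked. The differences of -2.44 for 267523_at and -1.59 for BT5 lie far below the bulk of the points, and 6 of the 8 other genes sit at or near the floor.

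Among the Ws arrays, 267523_at and BT5 varied more than most transcripts. The genes were chosen by a difference that uses these same Ws values, so the ranks are not independent of the choice and only describe. The SD over the Ws arrays was 0.36 for 267523_at, 0.41 for 267524_at and 0.26 for BT5, against a median of 0.12 for the 8242 probe sets whose mean exceeded 3. Of these probe sets, 97.8% had a smaller SD in Ws than 267523_at and 91.1% a smaller one than BT5. Probe set 267524_at exceeded a mean of 3 only through its Ws arrays and is not ranked. In the bzip63-2 arrays the SDs were 0.11 for 267523_at and 0.14 for BT5, against a median of 0.08, and 67.2% and 79.3% of the probe sets had a smaller SD. For 267524_at the SD was 0.08, limited by the floor. Ws replicate 3 was the highest Ws array for all 3 member probe sets, as it was for 41.3% of the probe sets with a mean above 3. The lowest Ws array was replicate 2 for 267523_at and replicate 1 for 267524_at and BT5. In the mutant, replicate 2 was the lowest array for all 3 member probe sets, as for 35.3% of the others. Both extremes together, Ws replicate 3 and bzip63-2 replicate 2, were found for 1305 of the 8242 probe sets (15.8%). Of the 3 member probe sets, 2 read the same gene, and these placings use the values by which the genes were chosen. Nothing is read from them. With their larger SDs, the Ws arrays set most of the uncertainty of each difference. Without Ws replicate 3 the log2 difference was -2.23 for 267523_at, -0.79 for 267524_at and -1.46 for BT5, the smallest size among the 6 fits that each left out 1 array.

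The other genes of the BTB and CUL3 machinery were little represented among named probe sets. Of 64 listed genes, 8 besides At2g30600 and BT5 had one, and 6 of these never rose more than 0.15 above the floor. None of the other 4 BTB/TAZ genes (BT1 to BT4) and neither CUL3 gene could be read. Of the 8 genes, 0 were called by limma at an adjusted p under 0.05 and 1 had an unadjusted p under 0.05, where 6.37% of all probe sets had. Their median log2 difference was 0.00, as it was over all probe sets, but the 6 genes near the floor largely set this value in advance.

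BPM3, a BTB and MATH domain protein of the kind that presents substrates to CUL3, was the gene with an unadjusted p under 0.05. It read 3.41, 3.11 and 3.44 in Ws and 3.61, 3.56 and 3.75 in the arrays labelled bzip63-2, with no overlap between the genotypes. Its log2 difference of 0.32 (standard error 0.12) was in the direction opposite to that of At2g30600 and BT5. It did not pass over all probe sets (adjusted p = 0.74 from limma), nor with means of 3 or less left out (adjusted p = 0.21 from limma), where 11.4% of the probe sets kept were higher at an unadjusted p under 0.05. FIP2, a BTB domain protein that binds the actin-nucleating formin AFH1, read 2.87, 3.22 and 3.39 in Ws and 3.38, 3.15 and 3.20 in bzip63-2. Its genotypes overlapped, with a log2 difference of 0.08 (standard error 0.17; adjusted p = 0.92 from limma). Without Ws replicate 1 that difference was -0.06.

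The remaining 6 genes gave no usable level in these leaves. NPR2, a relative of the salicylic acid receptor NPR1, had one Ws array at 2.48 and the others at the floor. SETH6, of the NPH3 group of BTB proteins, and TERT, the telomerase reverse transcriptase, read the floor value on all 6 arrays. TAC1, a zinc finger gene that activates telomerase through BT2, reached 2.59 in 1 Ws array only. RBX1B, a RING subunit of cullin ligases, and CSN5B, a subunit of the COP9 signalosome that removes the ubiquitin-like RUB from cullins, had highest values of 2.51 and 2.61. No difference between the genotypes was detectable for these 6 genes on these arrays.

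Profiles most like those of the members were found by the root mean square difference over the 6 arrays between log2 profiles that were each centred on their own mean, so that a smaller value is a closer likeness. Of the probe sets with a named gene, ASN1, an asparagine synthetase gene, came closest to 267523_at, at a distance of 0.36. ASN1 read 5.24, 6.06 and 6.48 in Ws and 3.92, 3.78 and 4.13 in the arrays labelled bzip63-2. As in At2g30600, its highest array was Ws replicate 3 and its lowest bzip63-2 replicate 2. AT4G15620, a CASP-like membrane protein gene, followed at 0.36 and BT5 itself was the third, at 0.44. XTH15, a cell wall xyloglucan enzyme, at 0.48 and AT2G29670, a tetratricopeptide repeat gene, at 0.50 completed the 5 nearest. AT4G15620 read 4.48, 5.07 and 4.57 in Ws, and its bzip63-2 arrays stood at most 0.03 above the floor, so that its difference of -2.23 is limited by the floor. XTH15 was likewise at most 0.08 above the floor in the mutant, with Ws arrays at 3.50, 4.11 and 5.21.

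The nearest profiles of BT5 were closer than those of 267523_at. The distance is not scaled for the size of a difference, and 267523_at had the largest decrease of all probe sets. This contrast therefore follows in part from the values by which the genes were chosen. AT2G29670 was nearest, at a distance of 0.09, with values of 6.30, 6.60 and 6.72 in Ws and 5.14, 4.83 and 5.12 in the arrays labelled bzip63-2. In both genes the Ws arrays rank in one order and bzip63-2 replicate 2 is the lowest array. AT1G54740, annotated as a protein of unknown function, was at 0.13 and AT2G17880, a small chaperone gene of the DnaJ type, at 0.18. PDX1.1, a vitamin B6 synthesis gene read by a probe set that can match several genes, was at 0.18 and AT5G64850, without a known function here, at 0.23. Log2 differences of these 5 genes ran from -1.51 for AT2G29670 to -1.33 for AT5G64850, next to -1.59 for BT5.

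Probe set 267524_at of At2g30600 was nearest to SEN1 (also DIN1), a dark-inducible gene, at a distance of 0.11. The bzip63-2 arrays of 267524_at lay at most 0.16 above the floor, so its difference and its likeness to other profiles are limited by the floor. The 2 probe sets of At2g30600 were 0.78 apart, and 15 probe sets were nearer to 267523_at than 267524_at was. SEN1 read 7.55, 8.02 and 8.31 in Ws and 7.14, 6.75 and 7.18 in bzip63-2, so that its log2 difference was -0.94 (standard error 0.26). RABA1f, a RAB GTPase gene, at 0.13 and CGA1, a GATA factor gene of chloroplast development, at 0.14 were next. EXL3, of the EXORDIUM-like family, at 0.15 and DIN10, a dark-inducible raffinose synthase-like gene, at 0.16 were the last of its 5. The 15 places hold 14 different genes, since AT2G29670 appears for both At2g30600 and BT5. All 14 are in the study's own list of changed genes, which was drawn from these arrays, and 11 of them are named here only through it. The likeness is dominated by the genotype difference for which At2g30600 and BT5 were chosen.

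**Figure D3:**
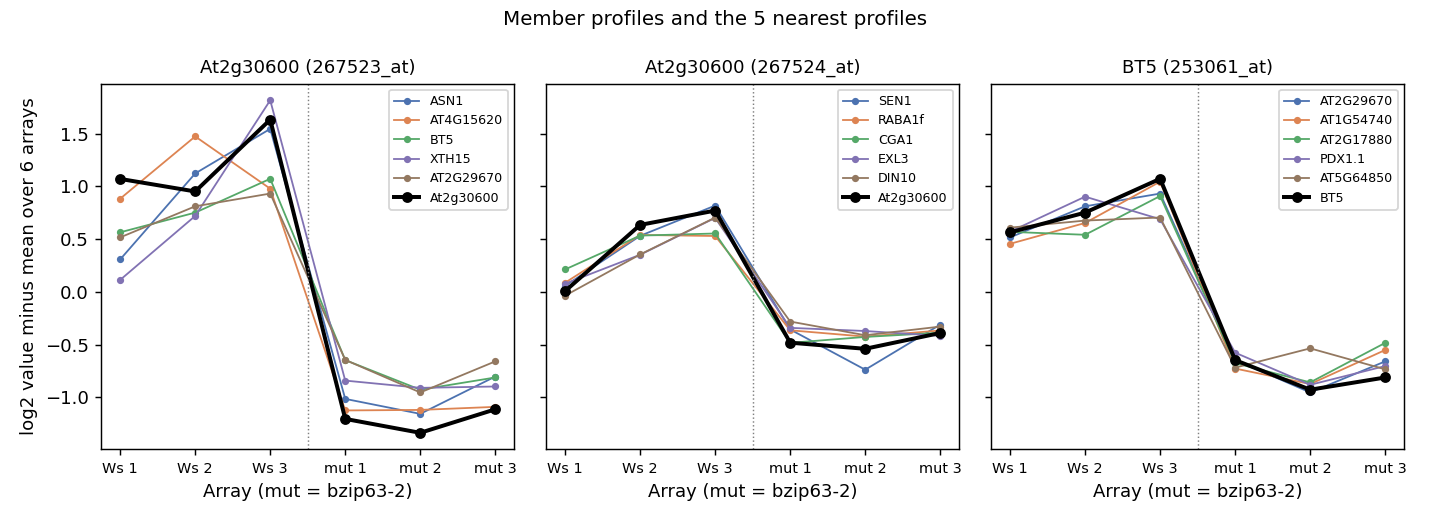
Log2 values minus the mean over the 6 arrays (vertical axis) for each member probe set (black) and its 5 nearest named profiles (colours) on each array (horizontal axis); lines join the arrays for legibility only, as replicates have no order. BT5 and AT2G29670 differ by 0.09 on this scale. The profile of 267523_at falls further than those of its nearest genes, as it had the largest decrease of all probe sets.

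Low energy markers, genes known to rise when carbon runs short or SnRK1 is active, went both ways in the mutant. Of 20 listed, 8 had a probe set, named in each case only through the study's list of changed genes. That list was drawn from these same arrays by a p-value cutoff. How many of the 8 separated without overlap or passed a threshold was therefore largely set by the naming. The counts below are not independent evidence of a direction or of a response. ASN1, SEN1, DIN10, BAM9 and KMD4 were lower without overlap (3.23% of all probe sets were), as At2g30600 and BT5 were. DRM1, DRM2 and BGAL4 were higher without overlap (6.81% of all probe sets were), with log2 differences of 0.69, 0.62 and 1.86. Over all probe sets limma called 0 of the 8 at an adjusted p under 0.05, and all 8 had an unadjusted p under 0.05, as 6.37% of all probe sets had. In the fit restricted to means above 3, where 0.692% of probe sets were called, limma called 3 of the 8. The adjusted p there was 0.039 for ASN1 and 0.0053 for both BAM9 and BGAL4. BAM9, a beta-amylase family gene, read 7.29, 7.33 and 7.51 in Ws and 6.39, 6.23 and 6.44 in bzip63-2. Its log2 difference of -1.02 (standard error 0.09) was smaller in size than those of BT5 and of 267523_at. KMD4, an F-box gene, read 5.87, 5.81 and 5.86 in Ws, and here the bzip63-2 arrays were the more variable ones at 5.09, 4.65 and 5.22.

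Genes beside At2g30600 on chromosome 2 showed no comparable difference. The 3 nearest genes on each side with a named probe set, 3 to 7 genes away, had log2 differences between -0.20 and 0.06, and limma called none of them at an adjusted p or an unadjusted p under 0.05. PSBW, a photosystem II subunit gene, read 9.94, 9.99 and 10.07 in Ws and 9.92, 9.83 and 9.97 in bzip63-2 (log2 difference -0.09, standard error 0.05; adjusted p = 0.74 from limma). AT2G30620 read 6.69, 6.75 and 6.61 in Ws and 6.74, 6.67 and 6.72 in bzip63-2, so that its log2 difference was 0.03 (standard error 0.04; adjusted p = 0.84 from limma). Both were bright and varied little. The other 4 genes lay within 0.76 of the floor, so they could not show a decrease of the size seen in At2g30600. AT2G30615 overlaps At2g30600 in the annotation and had no named probe set, so transcripts of the overlap cannot be assigned with certainty.

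Around BT5 on chromosome 4, named probe sets were sparser, from 6 to 34 genes away. Of the 6 genes read, limma called 0 at an adjusted p under 0.05, and 3 had an unadjusted p under 0.05, all higher in bzip63-2. By that rule 4.33% of all probe sets were higher, and 11.4% of those kept with means of 3 or less left out. These 3 were the only ones of the 6 with a mean above 3. AT4G37560 read 4.57, 4.37 and 4.83 in Ws and 5.02, 4.88 and 5.02 in bzip63-2, so that its log2 difference was 0.38 (standard error 0.14; adjusted p = 0.74 from limma). AT4G37550, annotated as a putative formamidase, read 7.02, 7.08 and 7.23 in Ws and 7.51, 7.45 and 7.69 in bzip63-2. Its log2 difference was 0.44 (standard error 0.10; adjusted p = 0.46 from limma). SQE3, a squalene epoxidase of sterol synthesis that lies 27 genes away, read 4.65, 4.79 and 4.75 in Ws and 5.25, 5.37 and 5.42 in bzip63-2. With a log2 difference of 0.61 (standard error 0.07) it did not pass over all probe sets (adjusted p = 0.23 from limma), and it passed with means of 3 or less left out (adjusted p = 0.020 from limma). For each of the 3 genes the genotypes did not overlap, with the higher values in bzip63-2. This held for 6.81% of all probe sets, a share that includes those at the floor. Nothing about BT5 is read from it. SQE3 and AT4G37550 are in the study's list of changed genes, and SQE3 is named here only through it, so the count of 3 is not independent of that list. The other 3 genes had log2 differences between -0.06 and 0.04. They never rose more than 0.41 above the floor, so they could not show a decrease of the size seen in BT5. AT4G37608 overlaps BT5 in the annotation and had no named probe set.

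**Figure D4:**
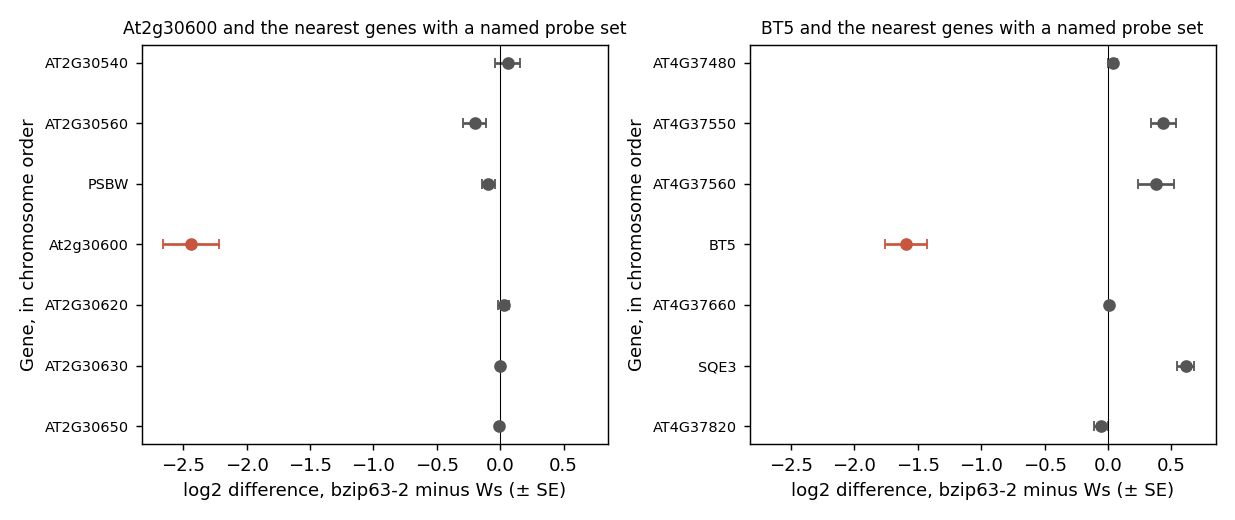
Log2 difference between bzip63-2 and Ws (horizontal axis, ± SE, n = 3 arrays per genotype) for At2g30600 (267523_at) and BT5 (red) and the 3 nearest genes on each side that have a named probe set (grey), in chromosome order from top to bottom. At2g30600 at -2.44 and BT5 at -1.59 have the lowest differences shown, and the 6 genes around At2g30600 stay between -0.20 and 0.06. Many of the grey genes lay within 0.76 of the floor and could not show a decrease of that size.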

How the data were processed

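Total RNA was hybridised to 6 ATH1 arrays by the study. The deposited log2 values, one for each probe set on each array, were made by the authors with RMA in Affymetrix Expression Console (version not given in the sources used here). Genotypes were compared, as bzip63-2 minus Ws, by limma 3.58.1 (lmFit, eBayes; R 4.3.3) on 22746 probe sets, with 64 control probe sets left out, no filter and Benjamini-Hochberg adjustment. Standard errors are those of a difference of means of 3 arrays. The fit was tested on simulated data. The number of arrays limits the precision.

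The platform annotation, joined to the TAIR10.1 table of RefSeq genes, named 13436 probe sets, and the study's list of changed genes named 181 others, among them that of BT5; its fold changes and p-values were not used. That table served for names and neighbouring genes only. Where a gene outside the members had several probe sets, the brightest stood for it.

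Genes named are the members, list genes, the 3 nearest genes with a probe set on each side and the 5 nearest profiles. The members and lists were chosen with earlier results of these data known. Of the lists, nitrate uptake and assimilation had 0 of 7 genes with a named probe set, and a search of the gene table for BTB names added no gene with one. Searches for motifs and protein comparisons were not run. Alternatives covered dim probe sets, the threshold, the variance prior, array weights, normalization, control and multiple-match probe sets, the replicate block and leaving out single arrays.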

Additional observations from a re-analysis of the deposited data

How the results depend on the processing

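Both genes stayed lower in bzip63-2 under array weights, repeated quantile normalization, the replicate block and each array left out. The genes were chosen for this difference and their genotypes did not overlap. Leaving out 1 array could therefore change its size but not its direction, and the direction is no independent support. Leaving out 1 array gave log2 differences from -2.57 to -2.23 for At2g30600 (267523_at) and from -1.71 to -1.46 for BT5; probe set 267524_at in place of 267523_at gave -0.94. The count of calls over all probe sets depends on the processing. It was 0 higher and 0 lower with limma, and also with the other priors, array weights, repeated normalization, control probe sets kept and multiple-match probe sets left out. It was 13 higher and 15 lower without the dimmest 50% of probe sets, 28 and 29 without means of 3 or less, and 60 and 48 without means of 4 or less. At an unadjusted p under 0.05 it was 984 and 465, or 941 and 378 with means of 3 or less left out, an alternative chosen after seeing the data. Leaving out 1 array gave 0 to 9 higher and 0 to 25 lower, the most without Ws replicate 3; without Ws replicate 1 or 2 it gave 1 and 4, and without bzip63-2 replicate 2 it gave 1 and 0. The BTB and cullin genes gave 1 call (BPM3) at an unadjusted p with and without that filter and 0 otherwise, also 0 to 0 with 1 array left out. With profiles centred on the Ws mean, 5 of the 5 nearest genes remained for 267523_at and BT5 and 3 of 5 for 267524_at.

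The replicate block called 0 probe sets and gave differences of -2.44 and -1.59. These equal the values without the block by design, as each replicate number occurs once per genotype. The labels give same-numbered arrays a shared number and state no pairing. The correlations of their deviations from the genotype means were -0.04, 0.02 and 0.05. These values cannot show whether same-numbered pools were handled together.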
